A study of Mus musculus with 12 samples.

Results

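Transcripts of 8 matrix metalloproteinases (Mmp2, Mmp3, Mmp8, Mmp9, Mmp10, Mmp12, Mmp13 and Mmp14) and 2 tissue inhibitors of metalloproteinases (Timp1 and Timp3) were followed across 12 mouse tumour RNA-seq libraries. The 10 genes were taken by symbol from a table of 55401 genes, each symbol matched 1 row, and all 10 passed the filter for testing (at least 1 FPKM in at least 3 libraries). FPKM, the number of fragments scaled to transcript length and to the size of the library, is a level per length, so levels of different genes can be set side by side. MTC-Q1 is a mouse oral cancer line. Per the labels its cells were injected orthotopically, that is into the mouth, in C57BL/6 mice, and the tumours were treated from a size of 100 mm3. The number of doses is given as 6 in the treatment protocol and as 4 in the series design, and neither the age nor the sex of the animals is in the labels. The study's methods name the injected cells as a luciferase-expressing subline of MTC-Q1. There were 4 groups of 3 libraries. They received a control immunoglobulin (Ctrl-IgG), an antibody against the macrophage growth factor receptor CSF1R (aCSF1R), a fusion of interleukin-10 with the Fc portion of an immunoglobulin (IL-10-Fc), or BF10, in which interleukin-10 is joined to the CSF1R antibody. By the labels every animal carried the same tumour cells and received an immunoglobulin-based protein. The labels do not say that the 3 libraries of a group came from separate animals, so p-values measure the spread between these libraries.

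Matrix metalloproteinases (MMPs) are zinc-dependent endopeptidases that cut the extracellular matrix and many cell surface and secreted proteins. Most are secreted as inactive precursors and are switched on outside the cell by other proteases, among them plasmin and other MMPs. Tissue inhibitors of metalloproteinases (TIMPs) bind the active site and block it, so a transcript level does not give the amount of active enzyme. In tumours the enzymes come from cancer cells, fibroblasts, macrophages and neutrophils alike. In whole tumour tissue, fewer cells of a type and less RNA per cell cannot be told apart.

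The libraries fell on 2 sides that go against their shared labels. All 6 libraries labelled IL-10-Fc or BF10 held the class II gene H2-Ea at 553 to 1727 FPKM, a gene that C57BL/6 mice are known not to transcribe, whereas the 6 libraries labelled Ctrl-IgG or aCSF1R held it at 0.04 to 0.27 FPKM. The same 6 IL-10-Fc and BF10 libraries held Xist at 17.1 to 30.7 FPKM and the simple epithelial keratin Krt8 at 169 to 618 FPKM, against at most 0.04 and 0.28 FPKM in the others. BALB/c mice with 4T1 breast tumours received the same agents in a separate arm, whose tumours were sequenced too. Whether any library here came from that arm was not tested. Treatment and this difference cannot be told apart in any comparison across the 2 sides, and group names below stand for labels. Comparisons within a side are aCSF1R against Ctrl-IgG and BF10 against IL-10-Fc. The label names the tissue as oral cancer, but the squamous keratin Krt14 was at 164 to 431 FPKM in Ctrl-IgG replicate 3 and aCSF1R replicates 1 and 2, at no more than 0.17 FPKM in the other 3 libraries of that side, and at 12.2 to 31.7 FPKM on the other side. Those 3 libraries also held the most skeletal muscle RNA, with 8 muscle markers summing to 605 to 1009 FPKM against 6.87 to 93.8 FPKM in the other 9. FPKM values summed to 819001 to 976950 in 4 libraries (BF10 replicate 1, IL-10-Fc replicates 1 and 2, Ctrl-IgG replicate 2) and to 637596 to 701275 in the other 8. Those 4 also had more mitochondrial RNA, 6.57% to 9.04% of the sum against 2.99% to 3.61%. The total read number is not in the files. The most common ratio of low values between libraries put their relative depth within 1.48-fold of each other.

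Of the 10 genes, 5 lie in the MMP cluster of chromosome 9, where 10 MMP genes stand within 427 kb (GRCm38, chr9:7272514-7699585). In map order the cluster members are Mmp13 (chr9:7272514-7283331), Mmp12 (chr9:7344381-7369499), Mmp3 (chr9:7445822-7455975), Mmp10 (chr9:7502352-7510240) and Mmp8 (chr9:7558456-7568485), all on the plus strand. The 3′ end of Mmp12 overlaps Mmp1b, which runs the other way (chr9:7368239-7388047). The others are spread over the genome, all on the plus strand: Mmp9 (chr2:164940780-164955850), Mmp2 (chr8:92827291-92853420), Mmp14 (chr14:54431612-54445364), Timp3 (chr10:86300372-86349506) and Timp1 (chrX:20870166-20874735). RefSeq promoter windows (GRCm38.p6) were found for 8 of the 10 members, with 2 starts for Mmp12. Mmp2 and Mmp9 had no window in the table.

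The 250 bases before the start are shown for 4 cluster members, because each window holds 1 match to the AP-1 motif TGAGTCA, the site of Fos and Jun factors, on either strand. Capitals mark that match. All are written on the plus strand, which is the strand of the genes. The Mmp12 window belongs to the second of its RefSeq starts.
Mmp13, chr9:7272264-7272513: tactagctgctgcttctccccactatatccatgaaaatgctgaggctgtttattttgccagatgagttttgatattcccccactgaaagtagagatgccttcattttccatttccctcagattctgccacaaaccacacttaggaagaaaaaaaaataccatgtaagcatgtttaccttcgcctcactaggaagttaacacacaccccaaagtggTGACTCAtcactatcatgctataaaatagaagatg
Mmp12, chr9:7347124-7347373: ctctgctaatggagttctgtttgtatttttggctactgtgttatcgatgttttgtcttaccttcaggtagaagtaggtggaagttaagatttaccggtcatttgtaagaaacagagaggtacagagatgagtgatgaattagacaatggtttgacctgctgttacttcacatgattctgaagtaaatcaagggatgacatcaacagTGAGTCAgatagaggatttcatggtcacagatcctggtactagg
Mmp3, chr9:7445572-7445821: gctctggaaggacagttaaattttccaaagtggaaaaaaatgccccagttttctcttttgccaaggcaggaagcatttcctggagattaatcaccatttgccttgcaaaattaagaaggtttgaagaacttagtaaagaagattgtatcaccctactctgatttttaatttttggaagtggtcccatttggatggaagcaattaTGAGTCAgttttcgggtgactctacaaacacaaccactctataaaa
Mmp10, chr9:7502092-7502341: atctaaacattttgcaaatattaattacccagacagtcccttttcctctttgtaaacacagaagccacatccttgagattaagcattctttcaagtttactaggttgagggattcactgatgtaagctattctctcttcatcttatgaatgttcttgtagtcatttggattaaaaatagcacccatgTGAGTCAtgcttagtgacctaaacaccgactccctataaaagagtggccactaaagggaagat

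The match began at base -35 in Mmp13, -44 in Mmp12, -46 in Mmp3 and -63 in Mmp10, counted back from the start. It was absent from the windows of Mmp8, Mmp14, Timp1 and Timp3 and from the first window of Mmp12. Of all 32851 mouse windows of the same length, 4.46% held it, and 4 of the 9 member windows did. The letters TATAAA, searched on the gene's strand, stood in the windows of Mmp3, Mmp10 and Mmp13 and in 7.59% of all windows. The PEA3 motif AGGAAG, searched on both strands, was found in 7 of the 9 member windows and in 29.5% of all. The STAT motif TTCNNNGAA and the NF-kB motif, on both strands, had no match in any member window, against 7.02% and 3.9% of all windows. A match is a string of letters and says nothing of binding.

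In Ctrl-IgG and aCSF1R tumours the inhibitor Timp1 held the first place and the membrane protease Mmp14 the second in all 6 libraries. The 10 transcripts summed to 274 to 448 FPKM in these libraries and to 875 to 1563 FPKM under IL-10-Fc and BF10. Timp1 made up 36% to 66% of the sum on the first side and 15.6% to 42% on the second. Mmp3, which made up 0.566% to 12% of the sum in Ctrl-IgG and aCSF1R, made up 15.7% to 27.7% in IL-10-Fc and BF10. First place on that side went to Timp1 in 3 libraries, to Mmp3 in 2 (IL-10-Fc replicates 2 and 3) and to Mmp9 in 1 (BF10 replicate 2). The 8 MMPs alone summed to 163 ± 77.3 FPKM (SD, n = 3) for Ctrl-IgG, 226 ± 20.5 for aCSF1R, 1031 ± 95.4 for IL-10-Fc and 763 ± 108 for BF10.

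**Figure D1:**
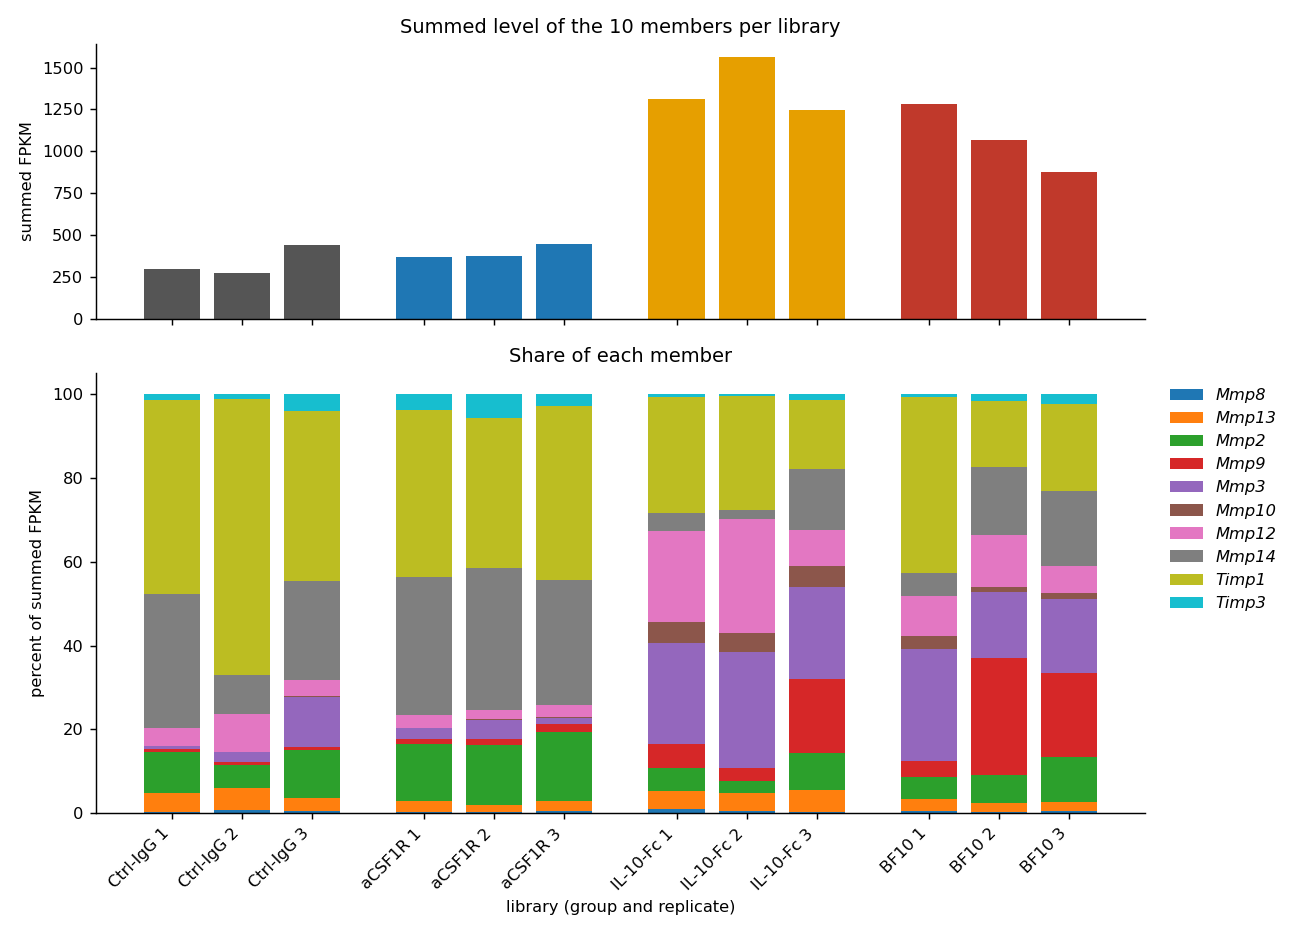
Summed FPKM of the 10 members in each library (upper bars) and the share of each member in that sum in percent (lower stacked bars), libraries grouped by label. The IL-10-Fc and BF10 bars stand at 875 to 1563 FPKM, all above the 274 to 448 FPKM of the others, and Timp1 and Mmp14 give way to Mmp3, Mmp9 and Mmp12.

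Over the 6 libraries of each side, 6 of the 10 members (Mmp3, Mmp8, Mmp9, Mmp10, Mmp12 and Mmp13) had their lowest IL-10-Fc or BF10 value above the highest Ctrl-IgG or aCSF1R value. The same held for 9.73% of all 15813 tested genes. Mmp10 reached 1 FPKM in 0 libraries of the first side and 6 of the second, so it was tested only through the second, and its place in this count and in those across the sides below was fixed by the filter. None of the members lay below without overlap, as 17.6% of all genes did. Differences were tested with limma on log2(FPKM + 1), and calls needed an adjusted p below 0.05 and a difference of at least 1.5-fold. In IL-10-Fc against Ctrl-IgG, 7 of 10 members were called, all higher, where 33.7% of all tested genes were called, 10.1% higher and 23.6% lower. In BF10 against Ctrl-IgG, 6 of 10 were called, all higher, where 24.9% of all genes were, 11.8% higher and 13.2% lower. Against aCSF1R, IL-10-Fc had 6 of 10 called higher (42.2% of all genes called, 11% higher and 31.2% lower), and BF10 had 6 of 10 called higher (25% of all genes, 11% higher and 14% lower). In groups that did not overlap, 7 members stood higher and 0 lower in IL-10-Fc against Ctrl-IgG, beside 12.2% and 25.2% of all genes. For BF10 against Ctrl-IgG these were 7 and 0, beside 17.3% and 21.1%. Against aCSF1R they were 7 and 0 for IL-10-Fc, beside 15.4% and 40.6%, and 6 and 0 for BF10, beside 19.8% and 35.9%. The median log2 difference over the 10 members was 1.94 in IL-10-Fc against Ctrl-IgG, beside -0.39 over all tested genes, and 1.3 in BF10, beside -0.12. Within the sides no member was called: 0 of 10 in aCSF1R against Ctrl-IgG, where 0% of all genes were called, and 0 of 10 in BF10 against IL-10-Fc, where 0.0126% were. Unadjusted limma p-values were under 0.05 for 2 and 3 members in these 2 comparisons, beside 437 and 828 of all 15813 tested genes. Without the 3 libraries rich in keratinocyte and muscle RNA, 5 members were called in BF10 and 7 in IL-10-Fc against Ctrl-IgG, while 2320 and 2796 of all genes were. Against the then single aCSF1R library, 2 were called in BF10 and 4 in IL-10-Fc, while the count over all genes fell from 3955 to 769 and from 6669 to 1230. Comparisons that share a control group share its libraries and are given side by side.

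**Figure D2:**
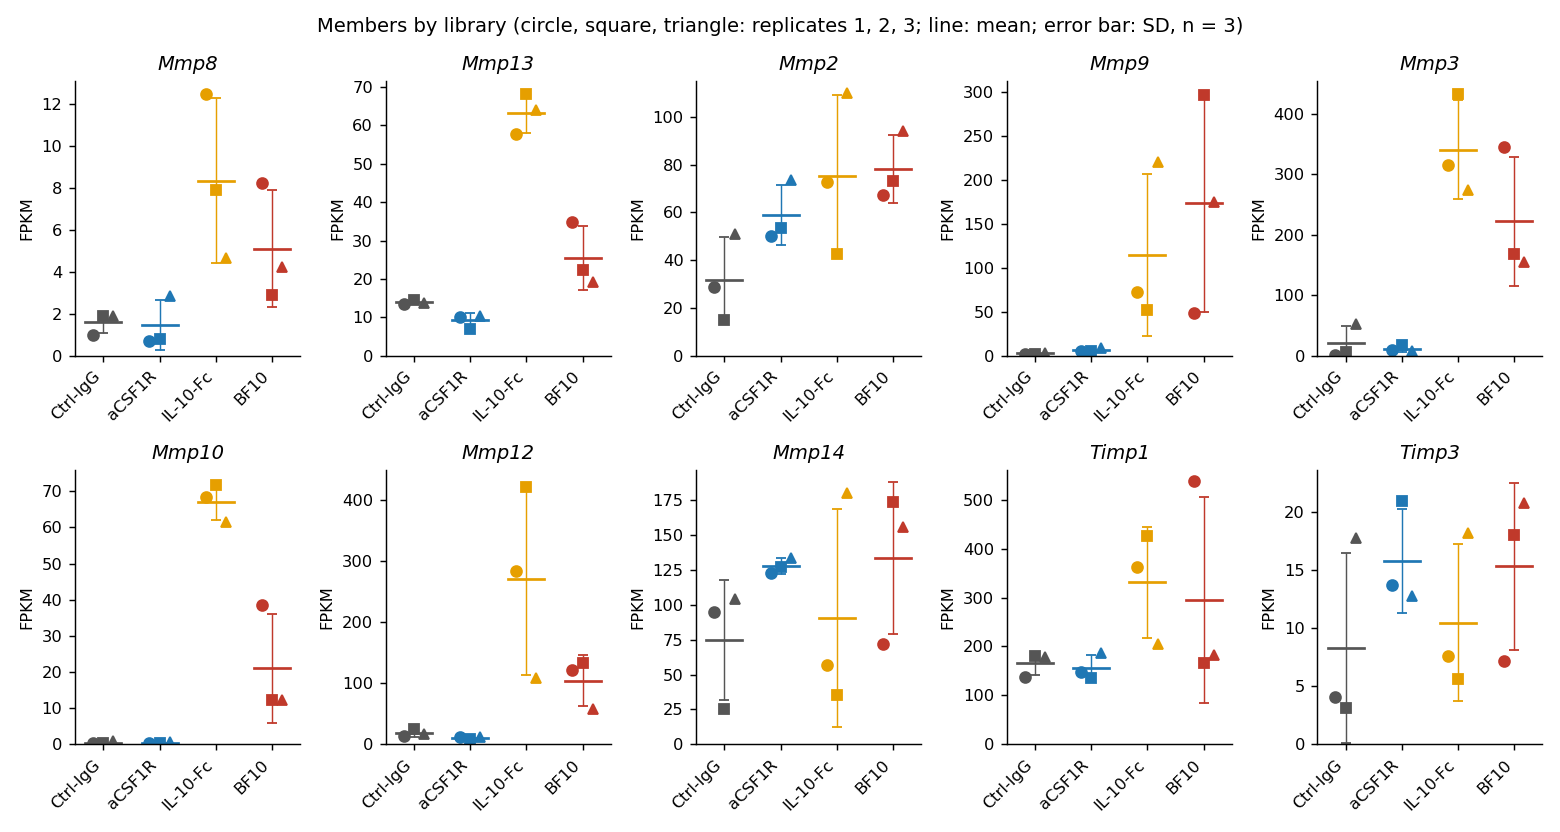
FPKM of each member in the 12 libraries on linear axes that start at 0 and differ between panels; symbols are replicates, horizontal lines means and error bars the SD (n = 3), drawn only above 0. Mmp10 sits at 0.28 to 0.81 FPKM in every Ctrl-IgG and aCSF1R library and at 12.2 to 71.6 FPKM in the others, whereas Mmp14 and Timp3 overlap between the 2 sides.

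The collagenases Mmp13 and Mmp8 cut the triple helix of fibrillar collagen. Mmp13, collagenase-3, stood at 13.6, 14.5 and 13.8 FPKM in Ctrl-IgG replicates 1 to 3 and at 10.2, 6.91 and 10.5 FPKM in aCSF1R. It reached 57.8, 68.1 and 63.9 FPKM in IL-10-Fc and 34.9, 22.3 and 19.1 FPKM in BF10. The 4 groups did not overlap, in the order IL-10-Fc, BF10, Ctrl-IgG, aCSF1R. Mmp13 was 4.29-fold higher in IL-10-Fc than in Ctrl-IgG (log2 2.10 ± 0.25, SE; limma adjusted p = 0.00014), and this call held in all 22 alternative settings. In BF10 the difference was 1.72-fold (log2 0.78 ± 0.25, limma adjusted p = 0.0392). That call held in 8 of 22 settings and was lost when any of 8 libraries was left out (each Ctrl-IgG library, aCSF1R replicates 1 and 3, IL-10-Fc replicate 1, BF10 replicates 1 and 2), with log2 differences from 0.53 to 0.95 and adjusted p up to 0.118 over the 12 omissions.

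Mmp8, the neutrophil collagenase that is stored in granules, was the lowest member, with a mean of 4.13 FPKM over all libraries. Its values were 1.00, 1.88 and 1.87 FPKM under Ctrl-IgG and 0.72, 0.80 and 2.86 FPKM in aCSF1R. In IL-10-Fc they were 12.5, 7.89 and 4.65 FPKM, and in BF10 8.23, 2.89 and 4.22 FPKM. The 2 sides parted narrowly, since the lowest BF10 library lay 0.03 FPKM above the highest aCSF1R library. Mmp8 was 3.45-fold higher in IL-10-Fc than in Ctrl-IgG (log2 1.79 ± 0.44, limma adjusted p = 0.00959), which held in 20 of 21 settings. The exception was the fit without the 4 libraries of high FPKM sum, which leaves only replicate 3 in IL-10-Fc (log2 1.24). In BF10 it missed the threshold (log2 1.17 ± 0.44, limma adjusted p = 0.0742), and it passed without IL-10-Fc replicate 3 (log2 1.17, limma adjusted p = 0.0485) or with the FPKM sum as a covariate (log2 1.23, limma adjusted p = 0.00689) and in no other setting. Against aCSF1R, Mmp8 was called in BF10 (log2 1.32 ± 0.44, limma adjusted p = 0.0464), a call that held in 7 of 21 settings. It was lost without any Ctrl-IgG library, aCSF1R replicate 1 or 2, IL-10-Fc replicate 2, or BF10 replicate 1 or 3, with log2 differences from 0.98 to 1.70 and adjusted p up to 0.165 over the 12 omissions.

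The gelatinases Mmp2 and Mmp9 digest denatured collagen and basement membrane collagen. Mmp9, is a protease of neutrophils, macrophages and some cancer cells. It stood at 2.34, 2.10 and 3.28 FPKM under Ctrl-IgG and at 5.08, 5.14 and 8.21 FPKM in aCSF1R. IL-10-Fc libraries held 72.4, 51.5 and 219.9 FPKM and BF10 libraries 48.4, 296.8 and 175.3 FPKM. Ctrl-IgG and aCSF1R did not overlap, and both lay below every IL-10-Fc and BF10 library, while IL-10-Fc and BF10 overlapped over most of their range. Mmp9 was 26.8-fold higher in IL-10-Fc (log2 4.74 ± 0.64, limma adjusted p = 0.000327) and 38.8-fold higher in BF10 (log2 5.28 ± 0.64, limma adjusted p = 0.000253) than in Ctrl-IgG. Both calls held in all 22 settings. The difference of aCSF1R from Ctrl-IgG was log2 0.99 with a 95% interval from -0.42 to 2.39 (limma adjusted p = 0.958). The study singled out Mmp9 on these samples, so its direction here is not independent evidence.

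Mmp2, gelatinase A, is made mainly by fibroblasts and is activated at the cell surface by Mmp14. It measured 28.8, 14.9 and 50.8 FPKM under Ctrl-IgG, 50.02, 53.3 and 73.4 FPKM in aCSF1R, 72.7, 42.6 and 110 FPKM in IL-10-Fc, and 67.1, 73.1 and 94.2 FPKM in BF10. Only the BF10 group cleared Ctrl-IgG, and aCSF1R overlapped with every other group. Mmp2 was called 2.44-fold higher in IL-10-Fc (log2 1.29 ± 0.43, limma adjusted p = 0.0395) and 2.69-fold higher in BF10 (log2 1.43 ± 0.43, limma adjusted p = 0.032) than in Ctrl-IgG. These calls were lost in 12 and 7 of 22 settings. For BF10 they were lost without Ctrl-IgG replicate 1 or 2 or BF10 replicate 2 or 3, and for IL-10-Fc without any of 9 libraries (Ctrl-IgG replicates 1 and 2, all of aCSF1R, IL-10-Fc replicates 1 and 3, BF10 replicates 2 and 3), with adjusted p up to 0.105 and 0.112. Against aCSF1R, Mmp2 was not called in either group (log2 0.27 and 0.41), but in IL-10-Fc it was with size factors (log2 0.90, limma adjusted p = 0.0451) and its sign turned on the TPM scale (log2 -0.05). The ratio of Mmp9 to Mmp2 lay at log2 -3.95 to -2.83 on the side of Ctrl-IgG and aCSF1R and at -0.47 to 2.02 on that of IL-10-Fc and BF10, with no overlap.

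The stromelysins Mmp3 and Mmp10 have broad substrates and can activate other pro-MMPs. Mmp10, stromelysin-2, was at 0.28, 0.29 and 0.81 FPKM under Ctrl-IgG and at 0.30, 0.50 and 0.54 FPKM in aCSF1R, so no library of that side reached 1 FPKM. It was at 68.3, 71.6 and 61.4 FPKM in IL-10-Fc and at 38.5, 12.4 and 12.2 FPKM in BF10. Because Mmp10 passed the filter only through these 6 libraries, a difference between the sides followed from its selection. The fitted difference from Ctrl-IgG was 47.2-fold in IL-10-Fc (log2 5.56 ± 0.38, limma adjusted p = 7.88e-06) and 13.3-fold in BF10 (log2 3.73 ± 0.38, limma adjusted p = 8.96e-05). With a pseudocount of 0.1 in place of 1 the log2 values became 7.03 and 5.14.

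Mmp3, stromelysin-1, a product of activated fibroblasts, had the highest single MMP value, 432 FPKM in IL-10-Fc replicate 2. Ctrl-IgG libraries held 1.68, 6.36 and 52.8 FPKM and aCSF1R libraries 9.26, 17.6 and 7.27 FPKM. IL-10-Fc libraries held 316, 432 and 273 FPKM and BF10 libraries 345, 168 and 154 FPKM. The high Ctrl-IgG value came from replicate 3, one of the 3 libraries with keratinocyte and muscle RNA, and it still lay below every IL-10-Fc and BF10 value. Mmp3 was 32.9-fold higher in IL-10-Fc (log2 5.04 ± 0.85, limma adjusted p = 0.00128) and 20.5-fold higher in BF10 (log2 4.35 ± 0.85, limma adjusted p = 0.00384) than in Ctrl-IgG. The BF10 call held in all 22 settings, and the IL-10-Fc call in 21. The exception was the fit without the 4 libraries of high FPKM sum, which leaves only replicate 3 in IL-10-Fc (log2 4.51).

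Mmp12, macrophage elastase, is made chiefly by macrophages. It measured 12.9, 24.6 and 17.0 FPKM under Ctrl-IgG and 11.3, 8.61 and 12.6 FPKM in aCSF1R. IL-10-Fc libraries held 284, 422 and 108 FPKM, and BF10 libraries 122, 134 and 57.4 FPKM. The aCSF1R libraries lay just under those of Ctrl-IgG (highest 12.6 against lowest 12.9 FPKM). Mmp12 was 12.7-fold higher in IL-10-Fc (log2 3.67 ± 0.48, limma adjusted p = 0.000278) and 5.32-fold higher in BF10 (log2 2.41 ± 0.48, limma adjusted p = 0.00423) than in Ctrl-IgG, in all 22 settings each. For aCSF1R the difference was log2 -0.67 (95% interval -1.73 to 0.39, limma adjusted p = 0.958). Part of its 3′ end is shared with Mmp1b on the other strand. The library kit keeps strand, but whether the counting used it is not given in the sources used here. Mmp1b itself was at no more than 1.89 FPKM in any library.

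Mmp14, the membrane-type MMP that activates pro-Mmp2, was abundant and did not part the sides. It stood at 94.7, 25.4 and 104 FPKM under Ctrl-IgG, 122, 127 and 133 FPKM in aCSF1R, 57.1, 35.2 and 180 FPKM in IL-10-Fc and 71.6, 173 and 156 FPKM in BF10. All 4 groups overlapped except that aCSF1R lay above Ctrl-IgG. No comparison called it, with log2 differences from Ctrl-IgG of 0.17 (95% interval -1.23 to 1.58) in IL-10-Fc, 0.97 (-0.44 to 2.37) in BF10 and 1.00 (-0.41 to 2.40) in aCSF1R. Its lowest values on each side came from libraries of high FPKM sum. With the FPKM sum as a covariate it was called higher in both IL-10-Fc (log2 1.00, limma adjusted p = 0.0124) and BF10 (log2 0.85, limma adjusted p = 0.0181) than in Ctrl-IgG. The fit without the 4 libraries of high sum gave log2 0.85 and 0.72. It leaves only replicate 3 in IL-10-Fc, which had the highest Mmp14 value of all libraries. Without IL-10-Fc replicate 3, Mmp14 was called lower in IL-10-Fc than in aCSF1R (log2 -1.49, limma adjusted p = 0.0444), against -0.83 with all libraries.

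The inhibitor Timp1, a soluble glycoprotein that many cytokines induce, was the most abundant member, with a mean of 237 FPKM. Its levels were 137, 181 and 178 FPKM under Ctrl-IgG and 149, 135 and 186 FPKM in aCSF1R. In IL-10-Fc they were 363, 426 and 205 FPKM, and in BF10 539, 167 and 182 FPKM. IL-10-Fc cleared both groups of the other side, whereas 2 of the 3 BF10 libraries lay within the Ctrl-IgG and aCSF1R range. Timp1 was not called in IL-10-Fc (log2 0.94 ± 0.42, limma adjusted p = 0.108) or BF10 (log2 0.63 ± 0.42, limma adjusted p = 0.33) against Ctrl-IgG. The IL-10-Fc difference passed without IL-10-Fc replicate 3 (log2 1.26, adjusted p = 0.0339) and without BF10 replicate 1 (log2 0.94, adjusted p = 0.0244), which enters through the shared spread. Against aCSF1R it passed without the same libraries (adjusted p = 0.0222 and 0.0148) and, with all libraries, under size factors and with the 2 groups fitted alone (limma adjusted p = 0.0444 and 0.049), but it missed otherwise (adjusted p = 0.0713). With the FPKM sum as a covariate the BF10 difference from Ctrl-IgG passed (log2 0.70, limma adjusted p = 0.0226).

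Timp3, the inhibitor that binds to the matrix, was the lower of the 2. It measured 4.04, 3.15 and 17.7 FPKM under Ctrl-IgG, 13.7, 20.95 and 12.8 FPKM in aCSF1R, 7.62, 5.65 and 18.2 FPKM in IL-10-Fc and 7.17, 18.04 and 20.8 FPKM in BF10. Each group overlapped with each other group. No comparison called it, and the largest difference from Ctrl-IgG was log2 1.17 in aCSF1R (95% interval -0.16 to 2.50, limma adjusted p = 0.958). Without Ctrl-IgG replicate 3, the difference of BF10 from Ctrl-IgG passed (log2 1.71 against 1.04, limma adjusted p = 0.0403), and with the FPKM sum as a covariate that of IL-10-Fc did (log2 1.17, limma adjusted p = 0.0344).

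**Figure D3:**
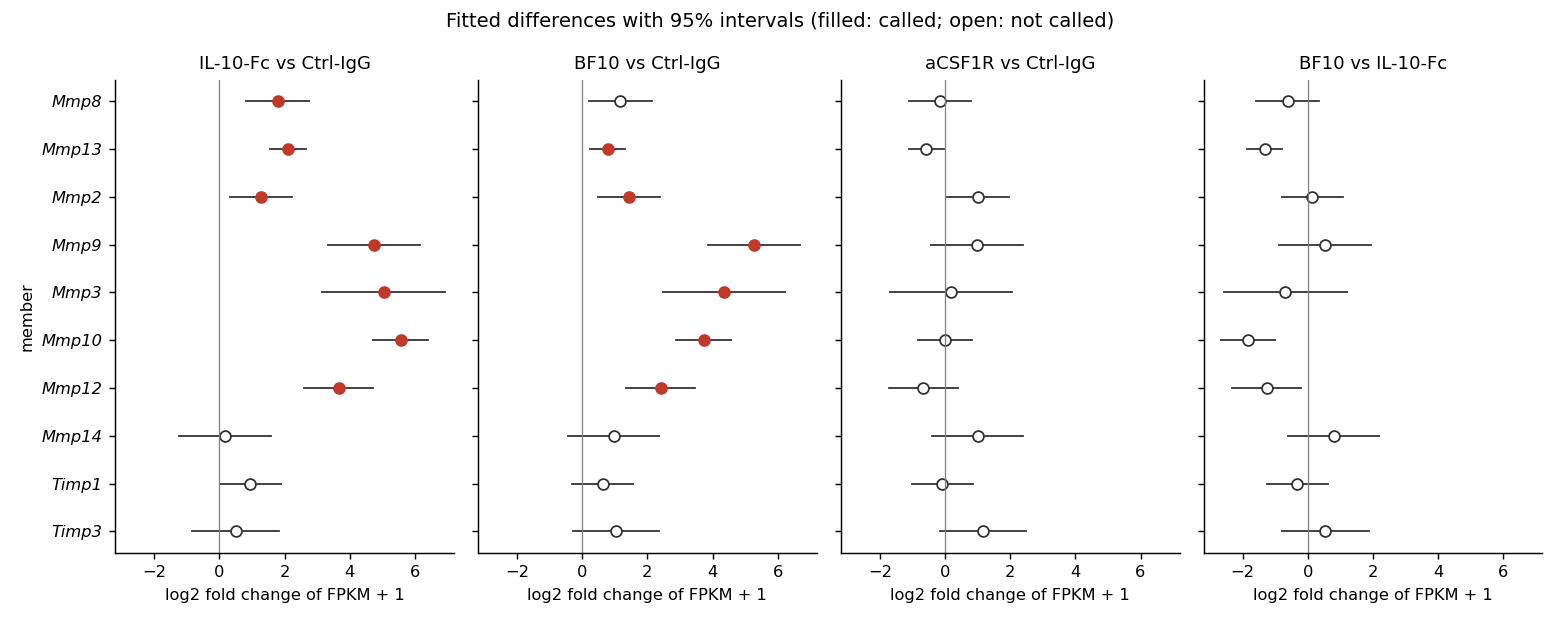
Fitted log2 difference of FPKM + 1 (x axis) for each member (y axis) with its 95% interval, in 4 comparisons; filled points were called and open points were not. Mmp3, Mmp9 and Mmp10 lie at 3.73 to 5.56 in both comparisons across the sides, whereas in aCSF1R against Ctrl-IgG and in BF10 against IL-10-Fc every point is open.

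The ratios of Mmp3 and Mmp9 to Timp1 parted the sides, and those of Mmp2 to Timp1 and of Mmp14 to Timp3 did not. The log2 ratio of Mmp3 to Timp1 was -6.35 to -1.75 for Ctrl-IgG, -4.68 to -2.94 for aCSF1R, -0.20 to 0.41 for IL-10-Fc and -0.64 to 0.01 for BF10, so the 2 sides did not overlap. For Mmp9 to Timp1 it was -6.43 to -5.76, -4.87 to -4.50, -3.05 to 0.10 and -3.48 to 0.83 in the same order. The ratio of Mmp2 to Timp1 overlapped between the sides, at -3.60 to -1.34 against -3.32 to -0.90. So did that of Mmp14 to Timp3, at 2.55 to 4.55 against 2.64 to 3.32. No test was run on these ratios.

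BF10 and IL-10-Fc libraries stood on the same side, so their comparison does not cross the split between sides. One library of this comparison, BF10 replicate 3, stood apart from the other 5: the Y-linked Eif2s3y was at 3.29 FPKM, against 0 to 0.05 FPKM in those 5 and 4.23 to 11.3 FPKM on the first side, and its muscle markers summed to 93.8 FPKM against 6.87 to 11.6 FPKM. Mmp13 was at 63.3 ± 5.21 FPKM in IL-10-Fc and 25.4 ± 8.38 FPKM in BF10 (SD, n = 3), and Mmp10 at 67.1 ± 5.21 and 21.01 ± 15.1 FPKM. Both genes had every BF10 library below every IL-10-Fc library, which held for 0.512% of all tested genes, and no member had every BF10 library above, as 4.67% of all genes did. The fitted differences were log2 -1.32 (95% interval -1.86 to -0.78, limma adjusted p = 0.30) for Mmp13 and -1.83 (-2.67 to -0.995, limma adjusted p = 0.478) for Mmp10. Neither passed the adjustment over all genes. Without BF10 replicate 1, which had the highest BF10 value of both genes, Mmp10 was called at log2 -2.36 (limma adjusted p = 0.00169) and Mmp13 at -1.57 (limma adjusted p = 0.012), while 115 of all genes were called in place of 2. Without BF10 replicate 3, neither was called (log2 -1.56 for Mmp10 and -1.15 for Mmp13). The fit without the 4 libraries of high FPKM sum leaves only replicate 3 in IL-10-Fc. It gave log2 -2.23 for Mmp10 and -1.59 for Mmp13. Mmp12 was at log2 -1.26 (95% interval -2.32 to -0.20, limma adjusted p = 0.478) with overlapping groups. Mmp9 (log2 0.54, -0.87 to 1.94), Mmp2 (0.14, -0.81 to 1.09) and Timp1 (-0.32, -1.25 to 0.62) had intervals on both sides of 0. The ratio of Mmp10 to Mmp3 was log2 -2.59 to -2.15 in IL-10-Fc and -3.76 to -3.16 in BF10.

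In aCSF1R against Ctrl-IgG the same antibody was compared on the other side. Mmp13 (log2 -0.57, 95% interval -1.11 to -0.03, limma adjusted p = 0.958) and Mmp12 had every aCSF1R library below every Ctrl-IgG library, beside 6.04% of all genes. Mmp9 and Mmp14 had every aCSF1R library above, beside 8.87% of all genes. Of 8 macrophage markers, 4 had every aCSF1R library below every Ctrl-IgG library and 0 were called. Averaged over both antibody comparisons, Mmp13 was log2 -0.95 ± 0.17 (limma adjusted p = 0.436), Mmp12 -0.96 ± 0.34 and Mmp10 -0.91 ± 0.27. For Mmp10 the difference was log2 0.002 in aCSF1R against Ctrl-IgG and -1.83 in BF10 against IL-10-Fc, so its average repeats the second. In the average over both comparisons 0 of 10 members and 0.00632% of all genes were called. Only with BF10 replicate 1 left out were Mmp13 and Mmp10 called (limma adjusted p = 0.0189 and 0.0166), while 49 of all genes were called in place of 1. How far BF10 departed from its 2 components added together was largest for Mmp10, log2 -1.83 ± 0.54 (limma adjusted p = 0.9996), and 0 of 10 members and 0.00632% of all genes were called. Without BF10 replicate 1 it was -2.36 (limma adjusted p = 0.0286), while 28 of all genes were called in place of 1. In that sum Mmp10 was under 1 FPKM in both Ctrl-IgG and aCSF1R, so the departure repeats the difference of BF10 from IL-10-Fc.

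**Figure D4:**
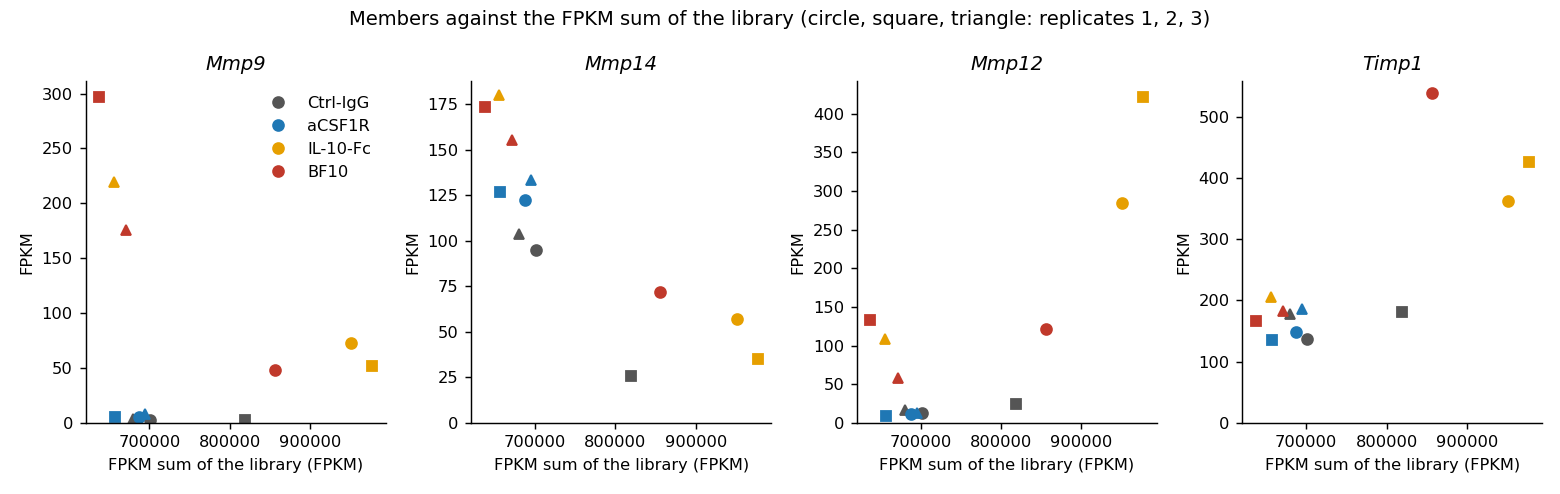
FPKM of Mmp9, Mmp14, Mmp12 and Timp1 (y axes, from 0) against the FPKM sum of the library (x axis), colours for groups and symbols for replicates. Mmp9 and Mmp14 are lower, and Timp1 is higher, in the high-sum libraries among IL-10-Fc and BF10 than in the others of that side.

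Within the IL-10-Fc and BF10 side, some members moved with the FPKM sum of the library, in opposite directions. In the 3 libraries of high sum Mmp9 was at 48.4 to 72.4 FPKM and Mmp14 at 35.2 to 71.6 FPKM, against 175 to 297 and 156 to 180 FPKM in the other 3. Timp1 was at 363 to 539 FPKM against 167 to 205 FPKM, and Mmp3 at 316 to 432 FPKM against 154 to 273 FPKM. The typical gene was itself lower in these 3 libraries. Its level against the geometric mean of the 12 libraries (size factor) was 0.59 to 0.85, against 1.06 to 1.17 in the other 3. Mmp9 and Mmp14 shared that direction, and Timp1 and Mmp3 did not. How many of all genes parted in this way was not counted. Ctrl-IgG replicate 2, the high-sum library of the other side, had the lowest Mmp14 (25.4 FPKM), Mmp2 (14.9 FPKM) and Timp3 (3.15 FPKM) of all 12. The sample titles carry numbered codes whose meaning the labels do not give. On the IL-10-Fc and BF10 side the 3 libraries of high sum have the 3 lowest codes, so the code and the sum cannot be told apart there. The part of this in the results was not tested beyond the fits with the FPKM sum as a covariate and without these 4 libraries. In the covariate fit Mmp9 and Mmp12 stayed called in IL-10-Fc and BF10 against Ctrl-IgG. Mmp10 did too, but the filter had fixed its direction, so it adds nothing here. The other fit leaves only replicate 3 in IL-10-Fc, and there Mmp9 and Mmp12 stayed higher in both groups than in Ctrl-IgG.

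Markers of cell types that make these proteins also differed between libraries. The counts below stand beside 10.1% of all tested genes called higher and 23.6% lower in IL-10-Fc against Ctrl-IgG, and 11.8% and 13.2% in BF10. Of 8 neutrophil markers 7 were tested, and 5 (S100a8, S100a9, Retnlg, Ngp, Camp) were called higher in both IL-10-Fc and BF10 against Ctrl-IgG. The 8 summed to 30.3 to 308 FPKM for Ctrl-IgG, 180 to 338 for aCSF1R, 1034 to 4562 for IL-10-Fc and 536 to 1657 for BF10. The neutrophil surface gene Ly6g was at 0.08 to 0.27 FPKM on the first side and 0.70 to 6.55 FPKM on the second. Of 8 macrophage markers 3 (Mrc1, C1qa, Msr1) were called higher in both groups, and the 8 summed to 331 to 588 FPKM for Ctrl-IgG, 196 to 213 for aCSF1R, 609 to 791 for IL-10-Fc and 712 to 861 for BF10. The macrophage sums of IL-10-Fc and BF10 overlapped. Of 8 fibroblast markers 4 were called higher in BF10 and 5 in IL-10-Fc, and the 8 summed to 168 to 617 FPKM for Ctrl-IgG, 490 to 597 for aCSF1R, 1030 to 2332 for IL-10-Fc and 1545 to 1889 for BF10. They did not all go one way. In BF10, 5 had every library above and 1 every library below those of Ctrl-IgG, beside 17.3% and 21.1% of all genes. Of 7 tested simple epithelial markers 7 were called higher in BF10 and 6 in IL-10-Fc, from sums of at most 9.64 FPKM to sums of 601 to 1582 FPKM. On the first side 0 of the 8 reached 1 FPKM in all 3 libraries of a group. There Krt8 and Krt18 stayed at no more than 0.28 and 0.09 FPKM, so the filter fixed their direction. Of 7 tested keratinocyte markers 0 were called in either, and of the skeletal muscle markers 2 were called lower in IL-10-Fc. The part of these cells in the MMP results was not tested.

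The rest of the cluster and of the family was read from a fixed list of 19 other MMPs and inhibitors, of which 10 were tested. In IL-10-Fc against Ctrl-IgG 4 were called higher and 1 lower, and the same counts held in BF10. The 1 lower was Mmp11, stromelysin-3, a fibroblast protease at 184, 49.0 and 116 FPKM under Ctrl-IgG and 203, 179 and 276 FPKM in aCSF1R, against 9.22, 6.83 and 20.9 FPKM in IL-10-Fc and 11.7, 23.3 and 39.2 FPKM in BF10. Mmp11 thus went the other way from the cluster genes, at log2 -3.09 ± 0.55 in IL-10-Fc and -2.15 ± 0.55 in BF10 (limma adjusted p = 0.00176 and 0.0153). Called higher in both were Mmp1a, Mmp1b, Mmp23 and the protease trap A2m, each at no more than 9.50 FPKM. Mmp1a, Mmp1b and A2m stayed below 1 FPKM in every library of the first side, so the filter fixed their direction. Mmp1a, annotated as a polymorphic pseudogene, and Mmp1b are related genes between which some reads may be split. They were at 0 to 0.03 FPKM in every library of the first side and at 0.35 to 1.89 FPKM in the others. In the cluster, Mmp27 stayed under 1 FPKM in all libraries, Mmp7 was at no more than 0.06 FPKM, and Mmp20 was listed at 0 throughout. Timp2, the inhibitor that links pro-Mmp2 to Mmp14, was at 37.1 to 141 FPKM and was called in no comparison.

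**Figure D5:**
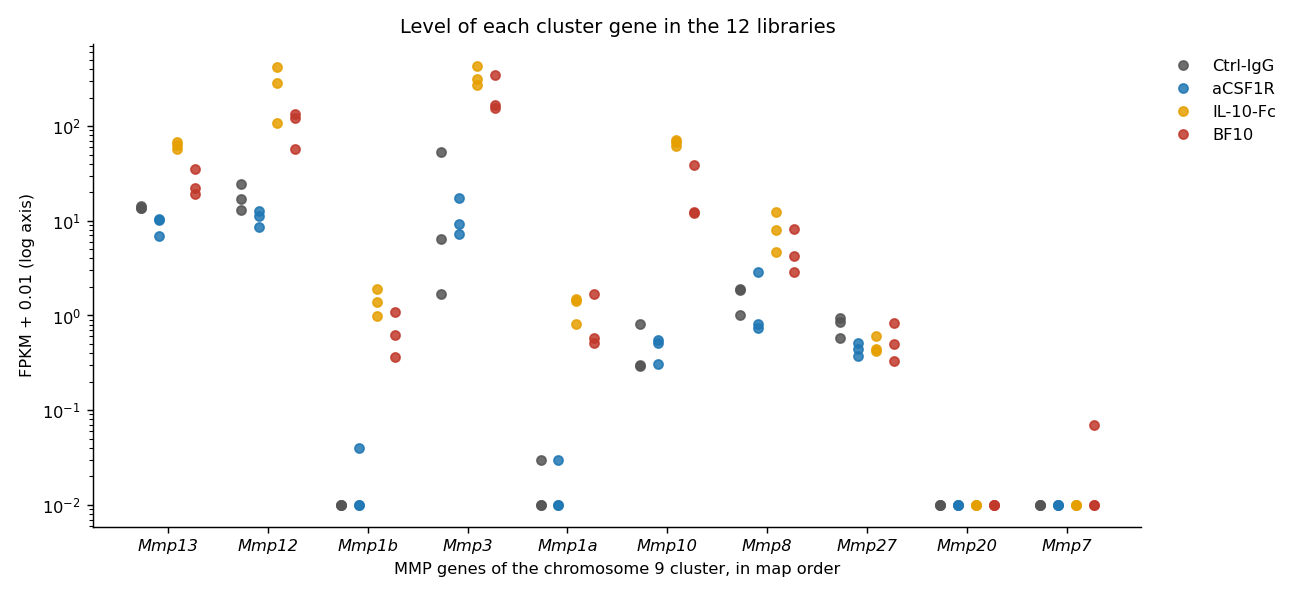
FPKM + 0.01 on a log axis for the 10 MMP genes of the chromosome 9 cluster in map order, 1 point per library, colours for groups. Mmp13, Mmp12, Mmp1b, Mmp3, Mmp1a, Mmp10 and Mmp8 lie higher in all IL-10-Fc and BF10 libraries than in the others, whereas Mmp27, Mmp20 and Mmp7 do not part.

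Of 14 genes for MMP activation and the plasminogen system 12 were tested, and 4 were called higher and 0 lower in each of IL-10-Fc and BF10 against Ctrl-IgG. They were Plau, the urokinase that makes plasmin, the protease inhibitors Serpine2 and Tfpi2, and Lcn2, which binds and protects Mmp9. Plau was at 7.04, 9.51 and 6.06 FPKM under Ctrl-IgG and 5.26, 6.37 and 7.53 FPKM in aCSF1R, and at 45.8, 39.1 and 71.7 FPKM in IL-10-Fc and 57.6, 70.8 and 49.5 FPKM in BF10. It was higher by log2 2.61 ± 0.27 in IL-10-Fc and 2.83 ± 0.27 in BF10 (limma adjusted p = 7.4e-05 and 5.97e-05). Its receptor Plaur and the convertase Furin were not called in these comparisons. Lcn2 was at 9.05 to 49.7 FPKM on the first side and 48.4 to 298 FPKM on the second. Of 15 ADAM and ADAMTS proteases, all tested, 2 were called higher and 2 lower in IL-10-Fc, and 6 higher and 0 lower in BF10, where 33.7% and 24.9% of all genes were called. Adam12 and Adamts12 were called higher in both. In aCSF1R against Ctrl-IgG no gene of these 3 lists was called, and in BF10 against IL-10-Fc none was called either. At an unadjusted limma p under 0.05, 1 gene of the 3 lists (in the activation list) was reached in the first and 1 (in the MMP list) in the second. Over all 15813 tested genes these counts were 437 and 828.

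The genes whose library-to-library pattern was most like that of each member were read after removing the group means, as the highest Pearson r of log2(FPKM + 1) over the 12 libraries among 9490 genes. For Mmp9 they were Slc9b2 (r = 0.976) and the phosphatase gene Ptpn6 (r = 0.97). For Mmp3 they were Cd24a (r = 0.976) and Cthrc1 (r = 0.966), and for Mmp10 Abhd5 (r = 0.973) and Ccdc59 (r = 0.952). For Mmp14 they were Tmem198b and Cdipt (r = 0.998 each), for Mmp13 Sec61g (r = 0.936) and Ndufaf7 (r = 0.88), and for Mmp12 Pyroxd1 (r = 0.935) and Dusp11 (r = 0.924). Those of Mmp2 were Phf13 (r = 0.967) and Ier5 (r = 0.965), those of Mmp8 Ccdc122 (r = 0.95) and Rap1a (r = 0.939), those of Timp1 Uap1 (r = 0.977) and Ubl5 (r = 0.974), and those of Timp3 Klf9 (r = 0.983) and the complement gene C3 (r = 0.978). The libraries differ in FPKM sum. With the group means removed, r with the log2 of that sum ran from -0.92 for Mmp14 and -0.89 for Mmp9 to 0.85 for Timp1, and was 0.09 for Mmp3. All these values are descriptions without a test.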

How the data were processed

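RNA of 12 tumour libraries, 3 in each of 4 groups taken from the treatment label, was analysed. Replicate numbers follow sample order and only name libraries. The authors prepared stranded mRNA libraries for an Illumina NextSeq run. The submitters' processing notes name STAR 2.7.5a, RSEM 1.3.3, DESeq2 1.30.0 and GRCm38 without their roles. The authors deposited FPKM values for 55401 genes, rounded and not rescaled between libraries. The authors also deposited DESeq2 tables of 4 comparisons, with fold changes and p-values, which were not used.

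Genes that reached 1 FPKM in 3 or more libraries (15813) were tested with limma 3.58.1 in R 4.3.3 (lmFit, contrasts.fit, eBayes with trend) on log2(FPKM + 1), all 12 libraries in one fit without covariates, adjusted by Benjamini-Hochberg over all tested genes. Genes were called at an adjusted p under 0.05 and at least 1.5-fold, 1.5-fold being the study's limit for higher genes. A fold on this scale understates the change of low genes. The code was tested on simulated data. Libraries were compared in pairs, and 0 pairs were identical. Gene positions came from GENCODE M21 and promoters from RefSeq.

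Named genes were the 10 members, called genes of fixed lists, and the 2 genes most like each member. The members and lists were chosen with earlier results of these data known. Alternatives covered the pseudocount, filters, scalings, covariates and left-out libraries, and 1 (without the 3 keratinocyte-rich libraries) was added after the data were seen.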

Additional observations from a re-analysis of the deposited data

How the results depend on the processing

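No paired analysis was possible because the replicate numbers follow sample order and pair nothing, and no compared groups share more than 1 of the codes in the sample titles. The 25 called differences of members between groups were refitted in 547 alternative values. Of these, 492 stayed called in the same direction, 55 lost the call and 0 reversed. The 492 include 22 values of Mmp10 from each comparison across the sides, where the filter had fixed its direction. Mmp13 and Mmp2 in BF10 against Ctrl-IgG, Mmp2 in IL-10-Fc against Ctrl-IgG and Mmp8 in BF10 against aCSF1R account for 47 of the 55 (14, 7, 12 and 14). The cause of these losses was not tested. Counts of called members ranged from 4 to 9 for BF10 and from 6 to 9 for IL-10-Fc against Ctrl-IgG, with 9 in each with the FPKM sum as a covariate. The count of 4 in BF10 came without a filter and with the 2 groups fitted alone. It also came without Ctrl-IgG replicate 1, Ctrl-IgG replicate 2 or BF10 replicate 2, where 2749, 3345 and 2603 of all genes were called. The count over all genes moved too: for BF10 it was 3941 of 15813 as reported, 6901 with the covariate, 2797 with the groups alone and 3507 of 36540 without a filter, and for IL-10-Fc 5326 as reported and 7144 with the covariate. For BF10 against aCSF1R the count fell from 6 to 2 without the 3 keratinocyte-rich libraries, which leaves 1 aCSF1R library, assumed to vary like the other groups, and over all genes from 3955 to 769. For BF10 against IL-10-Fc, the fit without the 4 libraries of high FPKM sum leaves 1 IL-10-Fc library, so its count is not given. Leaving out each library in turn gave 0 to 2 called members in BF10 against IL-10-Fc, 0 to 2 in the antibody average and 0 to 1 in the departure from the sum, the highest each time without BF10 replicate 1. Over all genes 115, 49 and 28 were called without that library. In aCSF1R against Ctrl-IgG no member was called in any setting. Scaling by size factors moved the median difference of all genes in IL-10-Fc against Ctrl-IgG from log2 -0.39 to 0.01, and the members were called in 7 of 10 cases with either. With 3 libraries a group and no read totals, differences within the 95% intervals given could not be resolved.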
